A study of Mus musculus with 4 samples.

Results

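Krüppel-like factors (KLFs) are transcription factors that carry a row of C2H2 zinc fingers at the end of the protein and bind CACCC boxes and GC-rich boxes in promoters. They fall into groups by the partners they recruit. KLF3 is a repressor that works through CtBP, KLF9, KLF10, KLF11, KLF13 and KLF16 bind the Sin3 co-repressor, and KLF2, KLF4, KLF5, KLF6 and KLF7 are mostly activators. In podocytes, the epithelial cells that cover the glomerular capillaries, KLF4, KLF6 and KLF15 are known for keeping the cells differentiated and protecting them from injury. The genes described here are Klf2, Klf3, Klf4, Klf5, Klf6, Klf7, Klf9, Klf10, Klf13 and Klf15. They were taken by gene name, are 10 of the 17 KLF genes with a row among the 54532 genes of the deposited table, and all 10 passed the filter on low counts that left 14095 genes for testing.

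The RNA came from MPC5, a conditionally immortalized mouse podocyte line that grows under interferon-γ and differentiates when interferon-γ is withdrawn at a higher temperature. A pair of libraries was made from cells given IL-12 for 6 h and another pair from control cells, which the study describes as saline-treated. Whether each library stands for its own culture is not given in the sources used here, and the p-values measure the spread between these libraries, which may be technical. The libraries held 18355379 to 20098012 counts. Levels are given as CPM, counts scaled by the library's total and its TMM factor. On that scale 3 counts equal 0.1515 to 0.1657 CPM, and this floor covers counting error only. As a check of the cell type, Synpo, Actn4, Cd2ap, Podxl and Nes were expressed, whereas Tcf21 and Ptpro had 0 counts in all libraries and Nphs1 had 0 or 1, so several genes that define mature podocytes in the kidney were at or under the floor. Of 12 podocyte markers 6 were tested, and 4 were higher and 1 lower with IL-12, with a summed level of 2576 to 2587 CPM in the control libraries and 3183 to 3196 CPM in the IL-12 libraries. Without Nes, which went from a mean of 605 to 1231 CPM, the sum was 1974 to 1979 CPM and 1948 to 1969 CPM. The lower marker was Synpo, which fell from 479 to 304 CPM (edgeR adjusted p = 3e-11). Endothelial markers summed to at most 0.555 CPM in any library, the groups overlapped, and none was tested. Leukocyte markers summed to 26.2 to 29.0 CPM in the control and 16.1 to 20.2 CPM in the IL-12 libraries, with Adgre1 and Cd3e at 0. Csf1r, with means of 22.16 and 12.04 CPM, was the leukocyte marker called and made up most of these sums. Cd68 and Ptprc did not fall. Cd68 had means of 5.31 and 5.61 CPM and was not called (edgeR adjusted p = 0.823). Ptprc had 3 and 1 counts in the control libraries, against 6 and 12 in the IL-12 libraries, too few to test. Tubule markers summed to 632 to 658 CPM and 517 to 557 CPM, nearly all of it Lrp2, with Slc34a1, Umod and Epcam at 0. Mesangial and fibroblast markers summed to 191 to 192 CPM and 212 to 218 CPM, mostly Acta2 and Pdgfrb, with Itga8 and Dcn at 0 or 1 count. The podocyte, leukocyte, tubule and mesangial marker sums thus did not overlap between the groups. Taken singly, 62.9% of all genes tested did not overlap either, so this is common with 2 libraries a group. The part of these markers in the Klf values below was not tested. In bulk RNA, a change in the number of cells and a change in RNA per cell cannot be told apart.

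Klf10, Klf5 and Klf13 were upregulated in the IL-12 treatment group and Klf3 was slightly downregulated. Klf10 rose 1.56-fold, Klf5 1.49-fold and Klf13 1.32-fold, while Klf3 fell to 0.912 of its control level. Klf2, Klf4, Klf6, Klf7, Klf9 and Klf15 did not pass the test. The changes were judged by edgeR's quasi-likelihood test across all 14095 genes, and a gene was called at a Benjamini-Hochberg adjusted p below 0.05. By this rule 3 of the 10 Klf genes were higher, against 16.1% of all genes tested, and 1 of 10 was lower, against 14.4%. With scaling by total counts only, 40.6% of all called genes were higher in place of 52.8%, and the Klf genes then split into 3 higher and 2 lower. No Klf gene was called with a change over 2-fold, which 1.61% of all genes tested were. DESeq2 and limma voom also called 0 over 2-fold, and of the Klf genes with an unadjusted edgeR p below 0.05, 0 changed by more than 2-fold. The 95% interval of each of the 10 log2 fold changes lay inside 2-fold in either direction. The libraries of the groups did not overlap for 8 of the 10 genes, 6 above and 2 below the control libraries, and the same held for 62.9% of all genes tested. The median log2 fold change was 0.11 over the Klf genes and -0.0022 over all genes tested, and the median size of the change regardless of sign was 0.17 and 0.16.

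**Figure D1:**
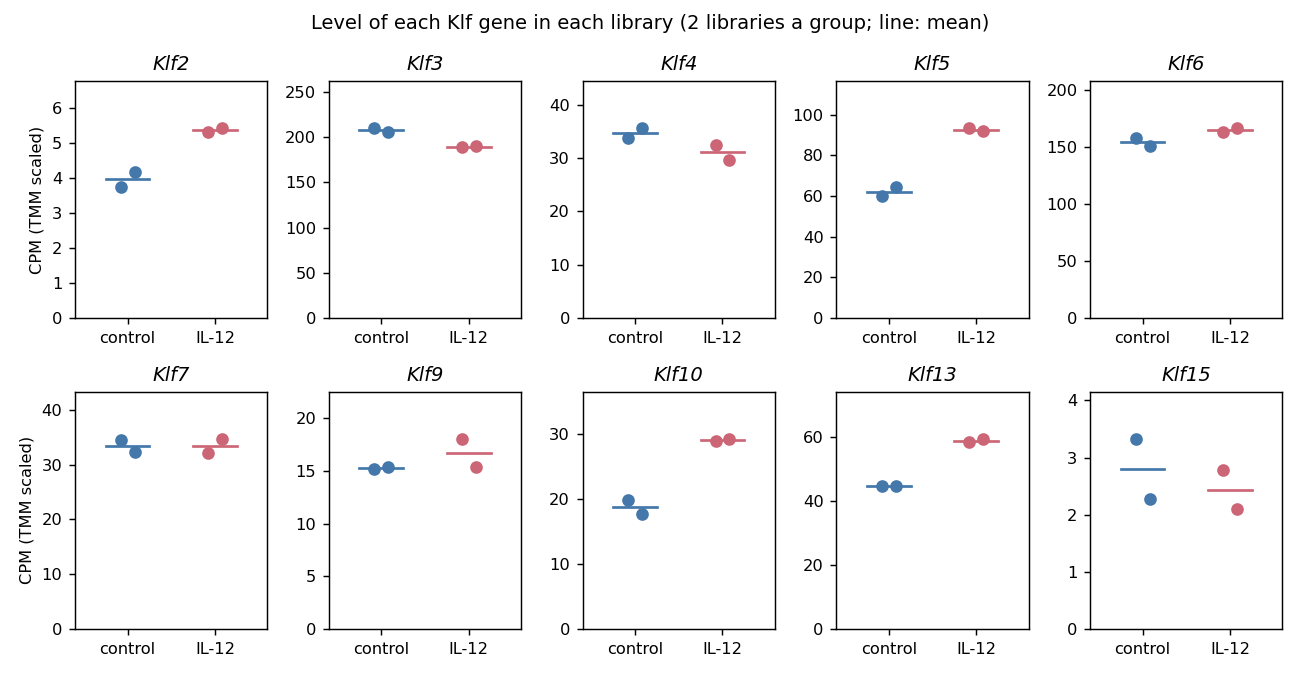
Level of each of the 10 Klf genes in CPM scaled by the TMM method (vertical axes from 0, each with its own range) in the control libraries (blue) and the IL-12 libraries (red), with 1 point a library and a line at the mean of 2. The points of Klf5, Klf10 and Klf13 are well apart between the groups, Klf3 and Klf4 sit slightly lower with IL-12, and those of Klf7 and Klf15 overlap.

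Klf10 encodes a Sin3-binding repressor first described as an early gene induced by TGF-β (TIEG1). The gene lies on the minus strand of chromosome 15 from 38291463 to 38300706 in GRCm38. It was at 19.8 and 17.6 CPM in the control libraries, against 29.0 and 29.2 CPM in the IL-12 libraries. The IL-12 values were both above the control values, and the control pair was the more spread. The control mean was 18.7 ± 1.52 CPM and the IL-12 mean 29.1 ± 0.159 CPM (both SD, n = 2), which is a log2 fold change of 0.64 (standard error 0.09, 95% interval 0.46 to 0.82, edgeR adjusted p = 1.39e-05). This was the largest log2 fold change of the 10 genes, and its interval overlapped that of Klf5.

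Klf5 encodes an activator known from proliferating epithelium and from smooth muscle cells that respond to injury. It lies on the plus strand of chromosome 14 from 99298691 to 99315036. Its level was 59.9 and 64.3 CPM in the control libraries, against 93.2 and 92.0 CPM in the IL-12 libraries. The groups did not overlap, and the gap between them was wider than the difference within either pair. On average the level was 62.1 ± 3.08 CPM without and 92.6 ± 0.791 CPM with IL-12 (SD, n = 2 each), for a log2 fold change of 0.58 (standard error 0.05, 95% interval 0.47 to 0.68). With an adjusted p of 7.24e-08 by the edgeR test, Klf5 had the smallest p of the Klf genes, and 91.1% of all genes tested changed by less in either direction.

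Klf13, a Sin3-binding factor known for driving chemokine transcription in T cells, lies on the minus strand of chromosome 7 from 63886351 to 63938915. The libraries of each group were close to each other, with 44.5 and 44.7 CPM in the control group and 58.4 and 59.2 CPM in the IL-12 group. Means were 44.6 ± 0.156 CPM and 58.8 ± 0.618 CPM (SD over 2 libraries), and the log2 fold change was 0.40 (standard error 0.06, 95% interval 0.28 to 0.52, edgeR adjusted p = 2.27e-05). All 3 of these genes were called under each of the 13 alternative settings, with log2 fold changes of 0.56 to 0.73 for Klf10, 0.53 to 0.63 for Klf5 and 0.36 to 0.41 for Klf13.

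Klf3, the CtBP-dependent repressor, lies on the plus strand of chromosome 5 from 64803388 to 64832901. It had 210 and 205 CPM in the control libraries, against 189 and 190 CPM in the IL-12 libraries, the highest counts of the 10 genes. The groups did not overlap, but the drop was small. The control group averaged 207.5 ± 2.96 CPM and the IL-12 group 189.4 ± 0.843 CPM (SD over 2 libraries), for a log2 fold change of -0.13 (standard error 0.04, 95% interval -0.21 to -0.05, edgeR adjusted p = 0.0101). The log2 fold change moved little, to -0.12 without control replicate 1 and -0.13 without IL-12 replicate 1, but Klf3 was called in neither fit. Each of these fits left 1 library in a group, so the lost call cannot be tied to a particular library. Klf3 overlaps a transcript on the opposite strand, Gm20033, which had 430 counts over the 4 libraries against 15034 for Klf3, and C230096K16Rik on the same strand, with 148 counts, and no source used here says that reads were assigned by strand.

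KLF proteins bind CACCC and GC boxes, also in promoters of their own family, so the upstream sequence of the called genes was examined for those letters. The RefSeq promoter table (GRCm38.p6) held 8 of the 10 genes and had no entry for Klf5 and Klf10. The 250 bases before the start site are printed 5′ to 3′ for Klf13 and Klf3, the called genes with an entry, and for Klf6, the Klf gene with the highest level. Capitals mark CACCC and GGGCGG on either strand, so that GGGTG and CCGCCC are their reverse complements, and adjacent or overlapping matches merge into 1 capital run. Klf13 is at chr7:63938916-63939165 on the minus strand, Klf3 at chr5:64803271-64803520 on the plus strand and Klf6 at chr13:5861239-5861488 on the plus strand.
Klf13: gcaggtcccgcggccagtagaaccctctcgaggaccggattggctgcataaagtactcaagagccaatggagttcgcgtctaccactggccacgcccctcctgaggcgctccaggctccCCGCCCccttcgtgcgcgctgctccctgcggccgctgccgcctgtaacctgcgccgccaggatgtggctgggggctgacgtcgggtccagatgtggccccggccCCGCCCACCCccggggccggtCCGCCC
Klf3: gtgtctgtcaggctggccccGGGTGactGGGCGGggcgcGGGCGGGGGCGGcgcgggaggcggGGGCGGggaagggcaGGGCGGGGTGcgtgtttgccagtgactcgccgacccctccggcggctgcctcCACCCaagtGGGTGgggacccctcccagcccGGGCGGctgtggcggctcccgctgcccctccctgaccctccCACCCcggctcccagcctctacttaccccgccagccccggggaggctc
Klf6: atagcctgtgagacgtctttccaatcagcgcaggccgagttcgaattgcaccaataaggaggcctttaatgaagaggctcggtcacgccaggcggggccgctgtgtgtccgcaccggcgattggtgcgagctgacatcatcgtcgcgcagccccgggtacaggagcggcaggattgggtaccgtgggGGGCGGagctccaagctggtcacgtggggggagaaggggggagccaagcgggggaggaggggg

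The Klf13 window held 1 CACCC match, starting 22 bases before the start site, and 3 GGGCGG matches, and 1 of these shares a base with the CACCC match. The Klf3 window held 5 CACCC and 6 GGGCGG matches, and the Klf6 window held 0 and 1. The RefSeq start site lay 133 bases inside the deposited Klf3 gene and 893 bases inside the deposited Klf7 gene. Part of the Klf3 window and all of the Klf7 window were therefore within those genes. For the other windows the start site was at most 29 bases from the deposited start. Over the 8 windows, CACCC was found in 6 and GGGCGG in 7, against 52.0% and 32.7% of all 32851 windows of the same length in the table. The 8 windows were rich in G and C, with 59.2% to 78.4% (median 71.4%) against a median of 52.4% over all windows. TGANTCA, the AP-1 site, was found upstream of Klf9 alone, and it occurs in 6.75% of all windows. TGACGTCA (1.55% of all windows), the CArG box (1.47%) and AGAACA, part of the glucocorticoid response element (16.1%), were found in 0 of the 8 windows.

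Among the genes that did not pass, Klf2 came closest. It encodes a factor known for its induction by flow in endothelium, lies on chromosome 8 from 72319033 to 72321656 and had few reads, with 71 and 79 counts in the control libraries, against 105 and 98 in the IL-12 libraries. In CPM these were 3.74 and 4.18 against 5.30 and 5.41, so the IL-12 libraries were both higher. The log2 fold change was 0.43 (standard error 0.18, 95% interval 0.06 to 0.81), with an unadjusted p of 0.0252 and an adjusted p of 0.0751 by the edgeR test. Its log2 fold change was close to that of Klf13, but the standard error was wider, and 0 of the 13 alternatives called it.

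Klf4, the pluripotency factor that is also made by podocytes, lies on chromosome 4 from 55527143 to 55532466. It had 33.7 and 35.5 CPM in the control libraries, against 32.4 and 29.7 CPM in the IL-12 libraries. Both IL-12 values were under both control values, by a gap no wider than the spread within the pairs. The log2 fold change was -0.16 (standard error 0.07, 95% interval -0.31 to -0.0013, edgeR adjusted p = 0.124), and the only setting that called it was scaling by total counts (log2 fold change -0.20, adjusted p = 0.0498). Klf6, an immediate early factor on chromosome 13 from 5861482 to 5870394, had 158 and 151 CPM in the control libraries, against 163 and 166 CPM in the IL-12 libraries. Its log2 fold change was 0.09 (standard error 0.04, 95% interval 0.0064 to 0.18, edgeR adjusted p = 0.0999). Klf6 had 2855 to 3230 counts a library, and its interval reached up to 1.13-fold.

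Klf7 on chromosome 1 (64029447 to 64122282), known from the nervous system, had 34.5 and 32.3 CPM in the control libraries, against 32.2 and 34.7 CPM in the IL-12 libraries. The groups overlapped, and the log2 fold change was 0.0014 (95% interval -0.15 to 0.15), with a negative sign under scaling by total counts (-0.04) or upper quartiles (-0.01). Of the 50-base words of the Klf7 transcripts, 38.2% also occur in Gm26649, a long noncoding RNA on the opposite strand, which was listed at 0 counts in all libraries. For the other 9 genes at most 3.48% of such words occur in another gene, and no pair of the 17 KLF genes shared 1, so reads of different KLF genes of that length can be told apart. Klf9, a glucocorticoid-induced Sin3-binding factor on chromosome 19 from 23141226 to 23166911, had 15.2 and 15.3 CPM in the control libraries, against 18.03 and 15.4 CPM in the IL-12 libraries. IL-12 replicate 2 was at the control level, though it counts as above the control libraries by the narrowest of margins. The log2 fold change of Klf9 was 0.13 (standard error 0.11, 95% interval -0.09 to 0.35), and it ranged from 0.0065 to 0.24 over the 13 alternatives.

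Klf15, on chromosome 6 from 90462576 to 90475238, is induced by glucocorticoids and supports podocyte differentiation. It was the scarcest of the 10 genes, with 63 and 43 counts in the control libraries, against 55 and 38 in the IL-12 libraries. In CPM, 3.32 and 2.28 stood against 2.78 and 2.10, and the groups overlapped. The log2 fold change was -0.19 (standard error 0.26), and the 95% interval, from a fold of 0.596 to 1.28, included no change. Without control replicate 1 the log2 fold change of Klf15 was 0.11, the opposite direction.

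**Figure D2:**
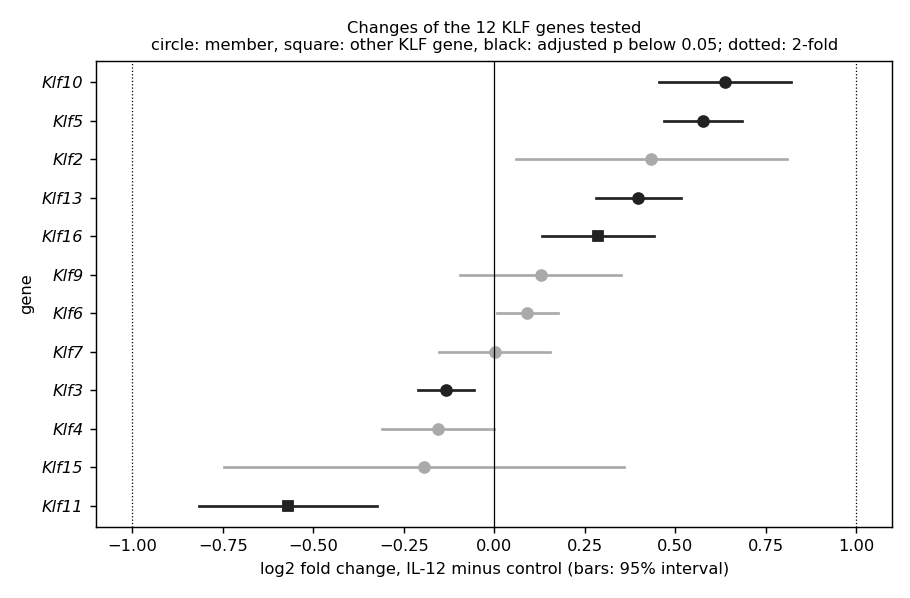
Log2 fold changes (horizontal axis, IL-12 minus control) of the 12 KLF genes tested (vertical axis), with 95% intervals as bars, black where the adjusted p was below 0.05 and grey otherwise, circles for the 10 Klf genes described and squares for Klf11 and Klf16. Klf10 and Klf5 lie farthest to the right and Klf11 farthest to the left, and every bar ends inside the dotted 2-fold lines.

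Levels of different genes were compared per gene length, by the deposited FPKM (fragments scaled by gene length and library size). Klf6 was the most abundant Klf gene, at 36.0 and 34.5 FPKM in the control libraries, against 37.2 and 37.9 FPKM in the IL-12 libraries. Klf3 followed in the control group with 18.6 and 18.3 FPKM, and Klf5 with 11.5 and 12.4 FPKM stood level with Klf4 at 11.1 and 11.7 FPKM, whose libraries it overlapped. In the IL-12 group Klf5, at 17.9 and 17.7 FPKM, stood above Klf3, at 16.8 and 16.9 FPKM, and Klf4 was at 10.6 and 9.76 FPKM. The order of Klf3 and Klf5 was thus exchanged between the groups. Klf10, at 4.73 and 4.23 FPKM, overlapped Klf9 at 4.67 and 4.71 FPKM in the control group, and at 6.95 and 7.004 FPKM it stood above Klf9, at 5.54 and 4.71 FPKM, with IL-12. Klf13 had 5.91 to 7.88 FPKM, Klf7 3.97 to 4.27, Klf2 2.03 to 2.94 and Klf15 0.753 to 1.19, and the places of these 4 genes in the order were the same in both groups. Within each library, the ratio of Klf5 to Klf4 FPKM was 1.04 and 1.06 in the control group and 1.69 and 1.82 in the IL-12 group. Such ratios do not depend on how libraries are scaled.

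**Figure D3:**
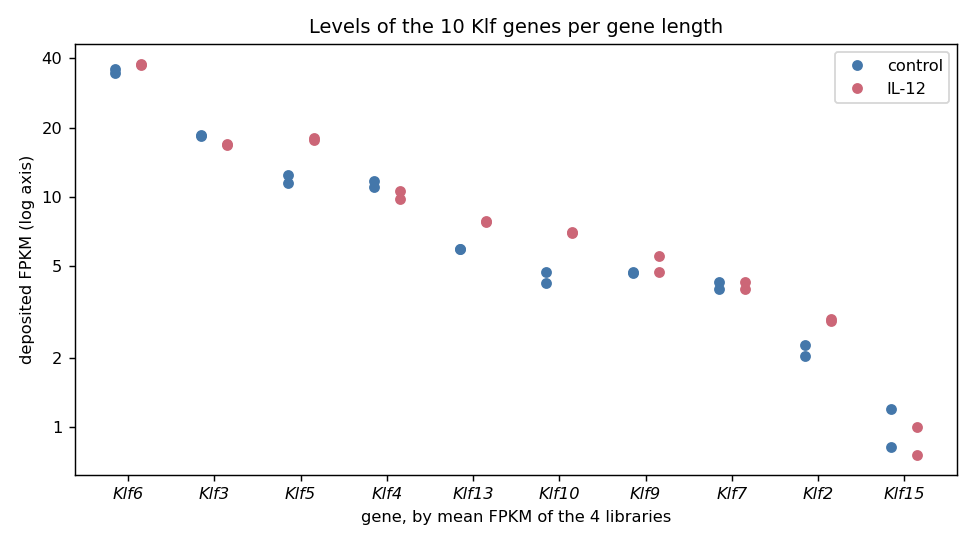
Deposited FPKM of the 10 Klf genes on a log axis, ordered by the mean of the 4 libraries, with 1 point a library, control in blue and IL-12 in red. Klf6 is highest at 34.5 to 37.9 FPKM and Klf15 lowest at 0.753 to 1.19 FPKM, and the red points of Klf5 lie above those of Klf3 while its blue points lie beside those of Klf4.

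Summed over the 10 genes, the level was 99.9 and 98.8 FPKM in the control libraries, against 111 and 110 FPKM in the IL-12 libraries. Scaled by total counts in place of the authors' scaling, the sums were 101.5 and 99.9 against 108.9 and 108.2. Of the FPKM of all 17 KLF genes, Klf6 made up 29.7% to 31.4% in every library. Klf5 made up 10.1% and 11.0% in the control libraries, against 14.3% and 14.1% in the IL-12 libraries, and Klf3 went from 16.3% in both to 13.4% and 13.5%.

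The other 7 KLF genes included 2 that were tested, and both were called. Klf11, the paralog closest to Klf10 and likewise induced by TGF-β in other cells, had 17.8 and 15.5 CPM in the control libraries, against 10.4 and 12.1 CPM in the IL-12 libraries. It fell by 0.57 on the log2 scale (standard error 0.12, edgeR adjusted p = 0.000927), and without IL-12 replicate 1 the log2 fold change was -0.46 with an adjusted p of 0.06. The ratio of Klf10 to Klf11 FPKM was 1.15 and 1.18 in the control libraries, against 2.91 and 2.50 in the IL-12 libraries. Klf16 had 27.3 and 26.7 CPM in the control libraries, against 32.2 and 33.7 CPM with IL-12, a log2 fold change of 0.29 (standard error 0.07, edgeR adjusted p = 0.00603), but an adjusted p of 0.058 by DESeq2 and of 0.0713 without IL-12 replicate 2. Of the 5 Sin3-binding KLF genes tested, Klf10, Klf13 and Klf16 were higher (16.1% of all genes tested), Klf11 was lower (14.4%) and Klf9 was not called, and the calls of Klf16 and Klf11 are those lost under the alternatives just given. Klf1, the erythroid KLF, had 3 to 6 counts and Klf8 had 0 or 1, both too few to test. For Klf12, Klf14 and Klf17 there were 0 counts in all libraries, which allows levels of up to 0.1515 to 0.1657 CPM.

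The SP factors, whose zinc fingers bind the same GC boxes, were not called: of 9 genes 6 were tested and 0 passed by edgeR, DESeq2 or limma voom, with 1 unadjusted edgeR p below 0.05 and a median log2 fold change of -0.04. With upper-quartile scaling, with total counts only and without control replicate 2, 1 SP gene was called lower. The MEK5-ERK5-MEF2 pathway is known to induce Klf2 and Klf4. Of its 6 genes tested, only Mapk7, which encodes ERK5, was called, and it was lower with a log2 fold change of -0.19 (edgeR adjusted p = 0.0282). Beside 0 of 6 SP genes and 1 of 6 pathway genes called, 14.4% of all genes tested were lower and 16.1% higher. With upper-quartile scaling or total counts only, 2 genes of the pathway were lower. The call of Mapk7 was lost with DESeq2 (adjusted p = 0.151), without the filter (0.0895), and without control replicate 2 (0.226), IL-12 replicate 1 (0.228) or IL-12 replicate 2 (0.0736).

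Of 15 genes for KLF partners and modifiers, all tested, 5 were lower, 1 was higher and 9 did not pass, with a median log2 fold change of -0.06. Of all genes tested 14.4% were lower and 16.1% higher, with a median of -0.0022. The co-repressor genes Ctbp2 (partner of KLF3), Sin3a (partner of KLF10 and KLF13) and Ncor1 had log2 fold changes of -0.28, -0.22 and -0.14, and the acetyltransferase genes Kat2b and Ep300 of -0.27 and -0.14. Ctbp1, the paralog of Ctbp2, was not called (log2 fold change 0.03, edgeR adjusted p = 0.521). Wwp1, which encodes a ubiquitin ligase of KLF5, was the higher gene with a log2 fold change of 0.18, and this call was lost with DESeq2 (adjusted p = 0.0945) and without IL-12 replicate 2 (0.11). Only Ctbp2 was called under all 13 alternatives. Without IL-12 replicate 1, 1 gene of the list was lower in place of 5, and Sin3a (adjusted p = 0.105), Kat2b (0.0745), Ncor1 (0.102) and Ep300 (0.197) lost their calls. Ncor1 was also lost without control replicate 1 (0.129). Ep300 was also lost with DESeq2 (0.0785), without the filter (0.0816), without control replicate 1 (0.351) and without IL-12 replicate 2 (0.0696).

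Klf9, Klf13 and Klf15 are known glucocorticoid-responsive genes, so the glucocorticoid receptor and genes it induces were listed. Of the 11 tested, 5 were higher and 4 lower, against 16.1% and 14.4% of all genes tested, with a median log2 fold change of 0.23. Sgk1 and Fkbp5 rose by 0.65 and 0.57 on the log2 scale (standard errors 0.07 and 0.08), and Errfi1 and Dusp1 by 0.26 and 0.23. Cebpd was the other higher gene (0.24, edgeR adjusted p = 0.0326), a call lost in 6 of the 13 alternatives. The lower genes, named after their values were seen, were Per1 (-0.37), Ddit4 (-0.19), Mt1 (-0.17) and the receptor gene Nr3c1 itself (-0.16). Without IL-12 replicate 1, 2 of these 4 were called lower, since Per1 (adjusted p = 0.143) and Nr3c1 (0.0683) were lost. Nr3c1 was also lost without control replicate 2 (0.0679), and Mt1 without control replicate 1 (0.0883) and without IL-12 replicate 2 (0.0758). Tsc22d3 (log2 fold change -0.04, edgeR adjusted p = 0.776) and Mt2 (0.27, edgeR adjusted p = 0.406) were tested and not called. The list thus held calls in both directions.

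Of 18 known KLF target genes, 13 were tested, and 4 were higher (16.1% of all genes tested), 1 was lower (14.4%) and 8 did not pass, with a median log2 fold change of 0.09. Ccnd1 (cyclin D1) rose from 374 to 549 CPM, a log2 fold change of 0.55 (standard error 0.03). Smad7, the TGF-β feedback inhibitor that KLF10 is known to repress, rose by 0.51, Tgfb1 by 0.33 and Plau (urokinase) by 0.20. Lgals3 (galectin-3), a known target of repression by KLF3, fell by 0.46 (standard error 0.05). Calls of these 5 genes held under all 13 alternatives, except that of Tgfb1 without IL-12 replicate 1 (adjusted p = 0.0961). Cdkn1a, the cell cycle inhibitor induced by KLF4 and KLF6, was not called, with a mean of 1008 CPM in the control and 1043 CPM in the IL-12 group (log2 fold change 0.05, edgeR adjusted p = 0.166). Nos3, Thbd and S1pr1, endothelial targets of KLF2, had 0 to 14 counts a library and were not tested.

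**Figure D4:**
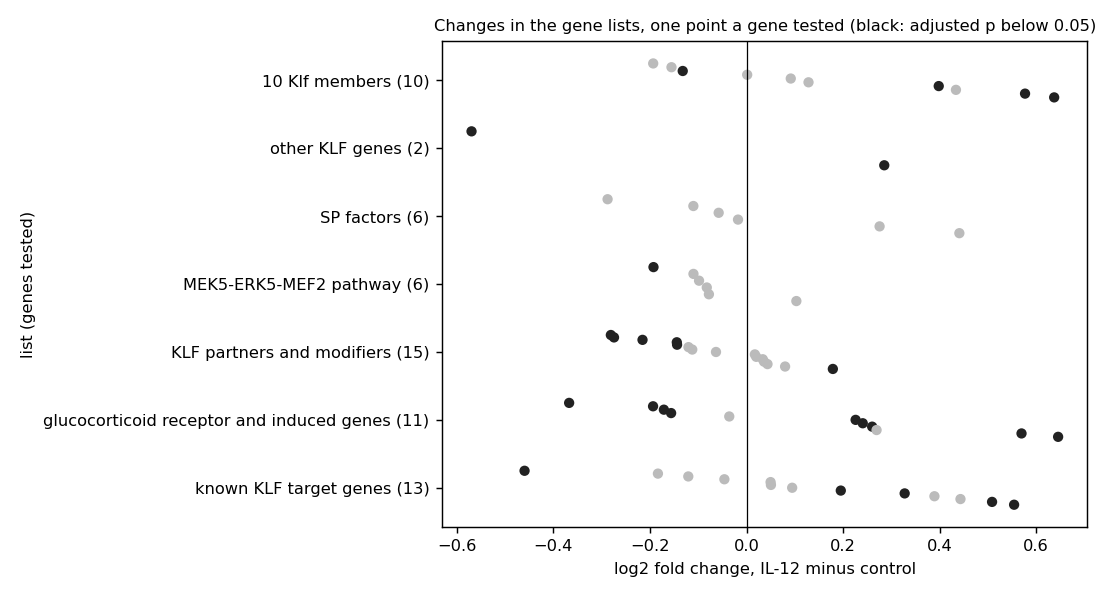
Log2 fold change (horizontal axis, IL-12 minus control) of each tested gene of the Klf genes and of the 6 related lists (vertical axis, with the number of genes tested), black where the adjusted p was below 0.05. Black points stand on both sides of 0 in 5 of the 7 rows, the SP factors have none, and the pathway of ERK5 has only Mapk7, to the left.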

How the data were processed

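The authors deposited raw counts per gene for the 4 libraries, which are not normalized, and FPKM values for the same genes. The submitters' processing notes name HISAT2, StringTie and the build mm9, and settings are not given in the sources used here. The deposited coordinates of 9 of the 10 Klf genes equal GENCODE M21 (GRCm38), so the coordinates were read as GRCm38. Those of Klf9 differ from M21, but its deposited start is the start site of its RefSeq promoter entry (GRCm38.p6). The deposited FPKM equal the count divided by gene length and total counts, times 1 factor a library (0.985 to 1.02).

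The analysis of the counts used R 4.3.3, edgeR 4.0.16 (filterByExpr with a minimum of 10 counts and 15 in total, TMM factors of 0.985 to 1.02, quasi-likelihood test), DESeq2 1.42.0 and limma 3.58.1, and figures were drawn with matplotlib 3.10.9. Total counts were 18355379 to 20098012 a library. For 2 libraries against 2, the smallest two-sided p of an exact permutation test is 0.333, and the p-values given use edgeR's estimate of the spread, which draws on all genes. The standard error was taken as the size of the log2 fold change over the square root of the F statistic. The tests were checked on counts simulated from the real means, with 200 genes changed 2-fold. Every Klf gene changed by less than that, so the check does not cover changes of their size. Within each group the libraries differed beyond sampling noise (chi-square per degree of freedom 2.13 and 2.41), so none was treated as a second deposit of another, and whether they came from separate cultures is not shown by this.

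The Klf genes, the gene lists and the naming rule were chosen with earlier results of these data known. All 10 Klf genes and all KLF genes are named. The rule for the other lists was to name at most 4 called genes by smallest p. It was not kept, since the text names every called gene of the related lists and some genes that were not called. Pairs for ratios were chosen after the values were seen. Alternatives were 3 other scalings, 3 other tests, 2 other filters, a replicate block and each library left out in turn, 13 in all.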

Additional observations from a re-analysis of the deposited data

How the results depend on the processing

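Under the 13 alternatives the count of Klf genes called higher was 3 and the count called over 2-fold was 0 each time. The count called lower was 1, except 2 with scaling by total counts only, where Klf4 joined Klf3, and 0 to 1 when each library was left out in turn. With the replicate block, 3 Klf genes were higher and 1 was lower, and the block changed no call among the 12 KLF genes. The labels give the groups the same replicate numbers only, and deviations of same-numbered libraries did not go together (correlation across genes -0.0323, and genes are not independent). Over all genes the block moved the calls from 2267 higher and 2030 lower to 2272 and 2069. Klf7 changed sign around 0, with -0.0142 under upper-quartile scaling, -0.0393 with total counts, -6.58e-05 with at least 10 counts in every library, and -0.0504 to 0.0558 when each library was left out. Klf15 ranged from -0.439 to 0.107 when each library was left out, with the positive value without control replicate 1. The cause was not tested. The counts of Klf2 and Klf15, at most 105 in every library, limit what could be shown for them, and 2 libraries a group limit all tests. Leaving out a library leaves 1 in its group, whose spread is then assumed to equal that of the other group.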
